A study of Mus musculus with 16 samples.

Results

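Chromatin was measured at 10 germline genes, Dazl, Ddx4, Stk31, Dppa3, Brdt, Sycp1, Sycp3, Hormad1, Mael and Asz1, in mouse induced pluripotent stem cell (iPSC) lines. The genes were chosen by name, with earlier results of these data known. Each had 1 row among the 55471 genes of the methylation table and 1 among the 43984 genes of the histone table. PTC11 and PTC12 came from proximal tubule cells of the kidney, and TTF1 and TTF4 from tail tip fibroblasts. All lines came from adult mice heterozygous for 4 transgenes, SLC34a1-GCE, tdTomato, rtTAROSA (neo-in) and OKMS-250, in which Cre recombinase opens the tdTomato and rtTA cassettes and doxycycline then switches on Oct4, Klf4, c-Myc and Sox2. In the kidney cells Cre was driven by the SLC34a1 promoter, a promoter of mature proximal tubule cells, and induced by tamoxifen in the diet; the cultured cells were sorted for tdTomato and GFP. In the fibroblasts Cre was brought in by electroporated plasmids. Each line is a clone that had become independent of doxycycline, so a line stands for 1 clone, and the labels do not say which line came from which mouse. Methylation at CpG dinucleotides (mCpG) was measured by nanopore long-read sequencing, and trimethylation of histone H3 at lysine 4 (H3K4me3), lysine 36 (H3K36me3) and lysine 27 (H3K27me3) by ChIP-seq, with 16 libraries in all.

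Promoter CpG methylation is the textbook mark of silent germline genes. Most CpG-rich promoters stay unmethylated in every tissue, but a small class that serves germ cells is methylated when the embryo implants and is cleared of the mark again in primordial germ cells. In embryonic stem cells the same genes are also held down by a Polycomb complex that contains MGA, MAX, E2F6 and PCGF6 and that meets DNA at E-box and E2F motifs. H3K4me3 is found at the start of active or poised genes and H3K36me3 along transcribed gene bodies, where DNMT3 enzymes are drawn to it. The 10 genes fall into 3 roles here: regulators of germ cells and meiosis (Dazl, Ddx4, Stk31, Dppa3, Brdt), proteins of the synaptonemal complex and meiotic chromosome axis (Sycp1, Sycp3, Hormad1), and the piRNA pathway that silences transposons (Mael, Asz1).

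The 10 promoters were highly methylated in TTF4 and less so in the other lines. In TTF4 the fraction lay between 0.850 and 1 at every one of the 10 and none had an H3K4me3 value. In PTC12 all 10 had an H3K4me3 value, in TTF1 8 did and in PTC11 1 did. Of all listed genes 34.9% had one in TTF4, 45.4% in PTC12, 44.2% in TTF1 and 34.4% in PTC11. Of protein coding genes the shares were 57.9%, 67.5%, 66.7% and 56.9%. The median methylated fraction of the 10 genes was 0.297 in PTC11 and 0.581 in PTC12, and 0.386 in TTF1 and 0.892 in TTF4. The median of all genes was 0.385 in PTC11 and 0.539 in PTC12, and 0.374 in TTF1 and 0.770 in TTF4. That of protein coding genes, as all 10 are, was lower, at 0.162 in PTC11 and 0.221 in PTC12, and 0.161 in TTF1 and 0.407 in TTF4. RNA was not analysed here, so silencing was not measured in any line. In TTF4 9 of the 10 genes had an H3K36me3 value over the gene body. The share there was 46.3% of all listed genes and 70.7% of protein coding genes. A fraction between 0 and 1 can come from some cells or alleles methylated throughout or from all of them methylated in part, and these cannot be told apart.

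The lines themselves differed. Over all genes with a value the mean mCpG fraction ranged from 0.372 in PTC11 to 0.649 in TTF4, and H3K4me3 had a value at between 34.4% of listed genes (PTC11) and 45.4% (PTC12). Among 10 markers of pluripotent cells H3K4me3 had a value at 9 in PTC11, PTC12 and TTF1 and at 7 in TTF4. In TTF4 Zfp42, Esrrb and Dppa5a had none. Esrrb had no H3K4me3 value in any line, but an H3K36me3 value over the gene body in every line. Among 10 fibroblast markers, which the feeder cells under the lines would also carry, the count was 1 in PTC11 and 5 in PTC12, and 5 in TTF1 and 4 in TTF4, with a summed level between 2.67 and 18.1 RPKM, and Col3a1, Postn, Lum, Dcn and S100a4 had no value in any line. All 7 housekeeping genes had an H3K4me3 value in every line. Of 6 proximal tubule markers 1 or 2 had a value in each line, and Slc34a1 had none.

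On mm10 the annotation placed Dazl (ENSMUSG00000010592) at chr17:50279395-50293636 on the minus strand, Ddx4 (ENSMUSG00000021758) at chr13:112598333-112652475 on the minus strand, Stk31 (ENSMUSG00000023403) at chr6:49395604-49469501 on the plus strand, Dppa3 (ENSMUSG00000046323) at chr6:122626410-122630272 on the plus strand and Brdt (ENSMUSG00000029279) at chr5:107331159-107387058 on the plus strand. The genes of the meiotic axis were Sycp1 (ENSMUSG00000027855) at chr3:102818499-102936100 on the minus strand, Sycp3 (ENSMUSG00000020059) at chr10:88459569-88473236 on the plus strand and Hormad1 (ENSMUSG00000028109) at chr3:95559677-95587671 on the plus strand, and those of the piRNA pathway Mael (ENSMUSG00000040629) at chr1:166201201-166238747 on the minus strand and Asz1 (ENSMUSG00000010796) at chr6:18050964-18109061 on the minus strand. All 10 are protein coding. The methylation window reached 1000 bp to each side of the transcription start site (TSS), so it covered the promoter and the first part of the gene.

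The promoters are shown because their number of CpGs bears on how their methylation compares with that of other promoters. RefSeq promoters on GRCm38.p6, the same sequence as mm10, were at hand for 9 of the 10 genes, all but Dppa3. The RefSeq start is the one used for the sequences and motif positions. It lay 165 bases inside the annotated gene at Ddx4 and at most 35 bases from the annotated start at the others. The 250 bases before the start are given 5′ to 3′ on the strand of the gene, with CpGs in capitals, for the pair with the highest mean methylation (Dazl, Asz1), the gene with the largest difference between origins (Hormad1), a promoter with a pair of E-boxes and the fewest CpGs (Sycp3), the one with the most CpGs (Ddx4) and the least methylated of the 9 (Stk31). Their positions are Dazl chr17:50293621-50293870, Asz1 chr6:18109062-18109311, Hormad1 chr3:95559427-95559676, Sycp3 chr10:88459337-88459586, Ddx4 chr13:112652311-112652560 and Stk31 chr6:49395354-49395603.
Dazl: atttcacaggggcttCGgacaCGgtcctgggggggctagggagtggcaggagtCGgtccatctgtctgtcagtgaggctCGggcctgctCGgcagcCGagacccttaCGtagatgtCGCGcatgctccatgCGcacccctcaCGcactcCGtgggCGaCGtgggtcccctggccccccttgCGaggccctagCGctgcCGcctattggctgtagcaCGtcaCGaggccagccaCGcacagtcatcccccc
Asz1: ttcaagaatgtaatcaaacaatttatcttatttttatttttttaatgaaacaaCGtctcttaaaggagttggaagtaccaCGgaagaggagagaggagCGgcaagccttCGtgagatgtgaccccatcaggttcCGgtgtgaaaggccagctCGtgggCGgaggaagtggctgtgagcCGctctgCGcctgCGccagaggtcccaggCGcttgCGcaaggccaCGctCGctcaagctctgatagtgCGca
Hormad1: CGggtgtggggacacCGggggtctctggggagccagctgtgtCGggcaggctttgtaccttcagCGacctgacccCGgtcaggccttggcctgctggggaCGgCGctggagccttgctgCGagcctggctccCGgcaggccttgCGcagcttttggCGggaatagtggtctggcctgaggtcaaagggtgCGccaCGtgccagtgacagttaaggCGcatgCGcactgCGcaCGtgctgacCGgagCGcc
Sycp3: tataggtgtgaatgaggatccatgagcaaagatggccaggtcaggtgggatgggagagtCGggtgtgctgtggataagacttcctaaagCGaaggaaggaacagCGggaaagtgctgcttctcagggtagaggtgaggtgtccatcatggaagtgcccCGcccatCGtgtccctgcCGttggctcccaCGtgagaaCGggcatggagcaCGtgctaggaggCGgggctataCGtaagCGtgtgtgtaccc
Ddx4: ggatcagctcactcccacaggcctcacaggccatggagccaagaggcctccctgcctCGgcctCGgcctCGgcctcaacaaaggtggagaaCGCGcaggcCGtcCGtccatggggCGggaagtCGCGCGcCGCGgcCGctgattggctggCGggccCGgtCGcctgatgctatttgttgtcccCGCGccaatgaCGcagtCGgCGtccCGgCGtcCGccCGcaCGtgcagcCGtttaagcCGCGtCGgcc
Stk31: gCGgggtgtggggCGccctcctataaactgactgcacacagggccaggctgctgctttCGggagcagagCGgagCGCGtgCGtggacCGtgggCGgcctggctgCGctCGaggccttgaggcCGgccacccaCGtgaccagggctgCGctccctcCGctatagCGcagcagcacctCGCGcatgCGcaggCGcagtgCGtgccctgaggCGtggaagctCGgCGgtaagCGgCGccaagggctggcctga

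These 250 bases held 20 CpGs in Dazl, 15 in Asz1, 19 in Hormad1, 12 in Sycp3, 31 in Ddx4 and 26 in Stk31. In the full 300-base windows, which run 50 bases into the gene, the 9 promoters held 15 to 38 CpGs with a median of 24, against a median of 14 over 16934 genes with a promoter. The E-box CACGTG, the motif met by MGA and MAX, lay in 7 of the 9 windows, against 8.42% of all genes with a promoter and 11.6% of the genes with as many CpGs. An E2F motif, TCCCGC or its reverse complement GCGGGA, lay in 5 of 9, against 26.9% and 43.5%. Both motifs lay in 5 of 9, in Mael, Sycp1, Hormad1, Sycp3 and Ddx4, against 2.85% and 4.86%. In Hormad1 the E-boxes began at positions -57 and -20 from the start, and in Sycp3 at -64 and -43. Dazl and Asz1, with the highest mean methylation, had neither motif in this window. A match describes the letters and not binding, and among 43 other germline genes with a promoter 13 had the E-box, 17 the E2F motif and 5 both.

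Promoter methylation was highest in TTF4 at 10 of 10 genes, which was also the order at 75.4% of all 50657 genes with a value in the 4 lines. Dazl, an RNA-binding protein needed for germ cell development, had the highest mean fraction of the 10. Its fraction was 0.454 in PTC11 and 0.646 in PTC12, and 0.631 in TTF1 and 0.897 in TTF4. It had the narrowest range across lines of the 10, and PTC12 and TTF1 were nearly level. Ddx4, the germ cell RNA helicase known as Vasa, had a fraction of 0.300 in PTC11 and 0.515 in PTC12, and 0.227 in TTF1 and 0.982 in TTF4. Stk31, a Tudor domain protein of the testis, had 0.305 in PTC11 and 0.416 in PTC12, and 0.164 in TTF1 and 0.850 in TTF4. In both genes TTF1 was the lowest line and TTF4 stood far above the others. Brdt, the testis bromodomain protein that reads acetylated histones in spermatids, had a fraction of 0.259 in PTC11 and 0.511 in PTC12, and 0.375 in TTF1 and 0.884 in TTF4. Dppa3, also called Stella, which shields maternal DNA from demethylation in the zygote and is made in germ cells and pluripotent cells, had 0.113 in PTC11 and 0.359 in PTC12, and 0.0742 in TTF1 and 0.856 in TTF4. Dppa3 had the lowest mean of the 10 and the widest range, 0.782, which put it at percentile 96.4 of all genes by range.

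Of the meiotic axis genes, Sycp1 and Sycp3 had the PTC lines furthest apart and Hormad1 did not. Sycp1, which forms the transverse filaments of the synaptonemal complex, had a fraction of 0.294 in PTC11 and 0.753 in PTC12, and 0.396 in TTF1 and 0.887 in TTF4. Sycp3, part of its lateral elements, had 0.163 in PTC11 and 0.678 in PTC12, and 0.433 in TTF1 and 0.904 in TTF4. PTC12 exceeded PTC11 by 0.459 at Sycp1 and by 0.515 at Sycp3, the widest gaps between the PTC lines among the 10 genes. Hormad1, a HORMA domain protein of unsynapsed axes, had 0.294 in PTC11 and 0.439 in PTC12, and 0.523 in TTF1 and 1 in TTF4. It was the one gene of the 10 at which TTF1 and not PTC12 ranked second, and its TTF4 value stood at percentile 97.8 of that line.

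The genes of the piRNA pathway were among the more methylated. Mael, needed for transposon silencing in spermatocytes, had a fraction of 0.334 in PTC11 and 0.670 in PTC12, and 0.416 in TTF1 and 0.937 in TTF4. Asz1, a germ cell protein of the nuage at mitochondria, had 0.549 in PTC11 and 0.758 in PTC12, and 0.276 in TTF1 and 0.871 in TTF4. Asz1 was the one gene above 0.5 in PTC11 and had the highest PTC12 value of the 10.

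**Figure D1:**
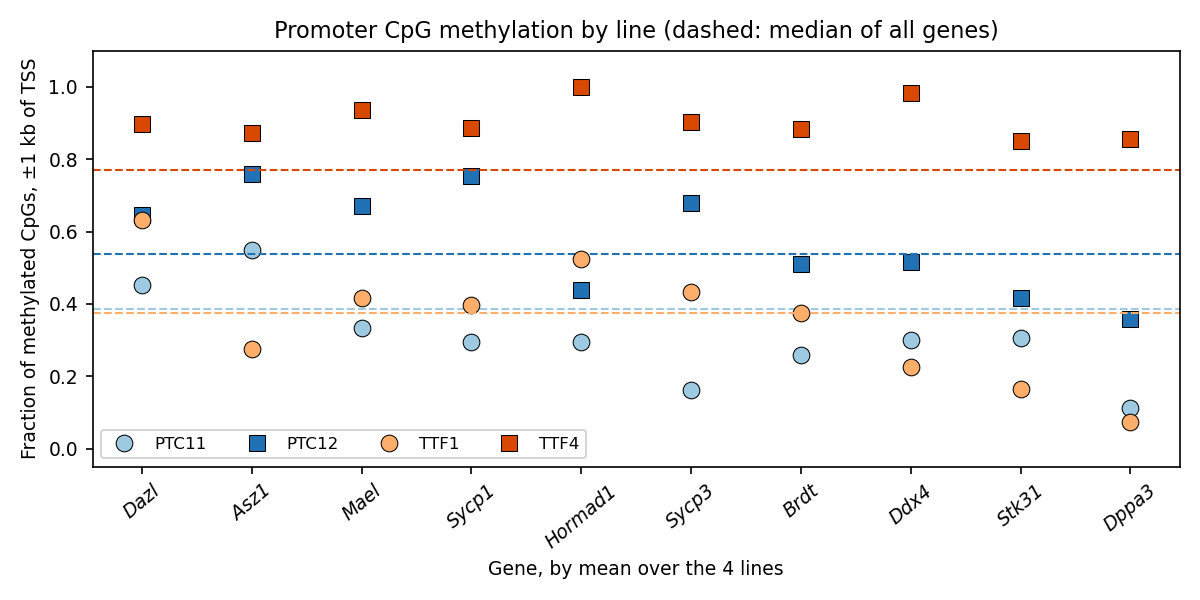
Fraction of methylated CpGs within 1000 bp of the TSS (vertical axis) at each of the 10 germline genes (horizontal axis, by mean), with 1 point per line, circles for PTC11 and TTF1, squares for PTC12 and TTF4, and dashed lines for the median of all genes in each line. The TTF4 squares lie between 0.850 and 1, above the other 3 lines at every gene.

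The order of the lines was much the same from gene to gene. PTC12 ranked second at 9 of 10 genes, against 47.4% of all genes, and exceeded PTC11 at 10 of 10, against 73.7%. The lowest line was PTC11 at 6 genes and TTF1 at 4. The gap between the TTF lines, from 0.266 at Dazl to 0.782 at Dppa3, was larger than the gap between the means of the origins at 10 of 10 genes, against 78.7% of all genes. TTF4 exceeded the mean of the other 3 lines by a median of 0.491 at the 10 genes, with a range of 0.320 at Dazl to 0.674 at Dppa3, and by a median of 0.231 at all genes. Without a replicate of any line, whether a line differs from the others at 1 gene could not be tested.

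Averaged over the 4 lines, 8 of 10 genes had a fraction above 0.5, against 56.6% of all genes and 28.6% of protein coding genes, and without TTF4 2 of 10 did. The means ran from 0.351 at Dppa3 to 0.657 at Dazl, with Stk31 at 0.433, Ddx4 at 0.506 and Brdt at 0.507. Within lines the count above 0.5 was 1 in PTC11 and 7 in PTC12, and 2 in TTF1 and 10 in TTF4, against 33.7%, 54%, 34.8% and 70.8% of all genes. The median of the 10 means was 0.554, close to 0.544 for all genes and above 0.235 for protein coding genes. After subtraction of the mean of each line, as the study did to correct for differences between samples, only Dazl lay above 0 in all 4 lines, against 32.6% of all genes. Against promoters of like CpG content the level of the germline genes was high. It is a description and not a test, because the genes were chosen with earlier results of these data known. The 7307 genes with 15 to 38 CpGs in the promoter window had a median mean fraction of 0.120 and 2.12% of them exceeded 0.5, whereas 8 of the 9 germline genes with a promoter did, with a median of 0.564. Stk31, the exception, lay at percentile 96.5 of that group and Dazl at 99.6. TTF4 exceeded the mean of the other lines by a median of 0.119 in that group and of 0.479 at the 9 germline genes.

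**Figure D2:**
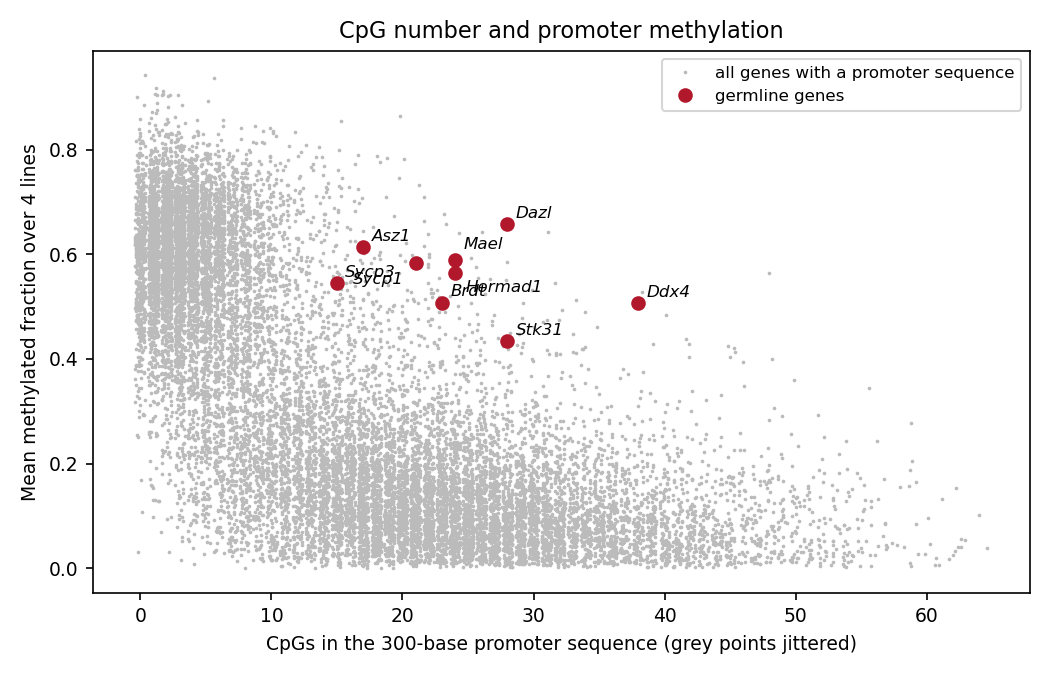
Mean methylated fraction over the 4 lines (vertical axis) against the number of CpGs in the 300-base promoter window (horizontal axis) for 16934 genes in grey, shifted sideways at random to reduce overlap, and the 9 germline genes with a promoter in red. The germline genes lie above the bulk of promoters with as many CpGs, whose median is 0.120.

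Whether methylation at these genes followed the cell of origin was tested with limma on the centred fractions, 2 PTC lines against 2 TTF lines, with Benjamini-Hochberg adjustment over 50657 genes. None of the 10 genes passed an adjusted p of 0.05, against 0.00395% of all genes, and none had an unadjusted p under 0.05, against 4.72% of all genes. Hormad1 had the largest difference. Its deposited fraction was 0.367 ± 0.102 (SD, n = 2) in the PTC lines and 0.761 ± 0.337 (SD, n = 2) in the TTF lines. After centring, TTF minus PTC was 0.308 (SE 0.158, limma adjusted p = 1.00). The differences of Sycp3, Brdt, Dppa3, Dazl and Ddx4 ran from 0.160 down to 0.110, those of Mael, Stk31 and Sycp1 from 0.0873 to 0.0312, and Asz1 had -0.167 (SE 0.159). The standard errors were 0.150 to 0.162, because limma draws the spread of each gene toward a trend over all genes. At Dazl the centred SDs (n = 2) were 0.0585 in the PTC lines and 0.00331 in the TTF lines. At Dppa3 they were 0.0959 and 0.362. A difference of the size of these could not be told from that moderated spread. After centring, Dazl and Hormad1 had both TTF values over both PTC values, 2 of 10 genes, against 15% of all genes in that direction and 27.8% in either. The median difference of the 10 genes was 0.118, against -0.0100 for all genes, and without TTF4 it was -0.0586, with 4 genes above 0 in place of 9. With 2 lines against 2 an exact permutation test over lines cannot give a two-sided p below 0.33.

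**Figure D3:**
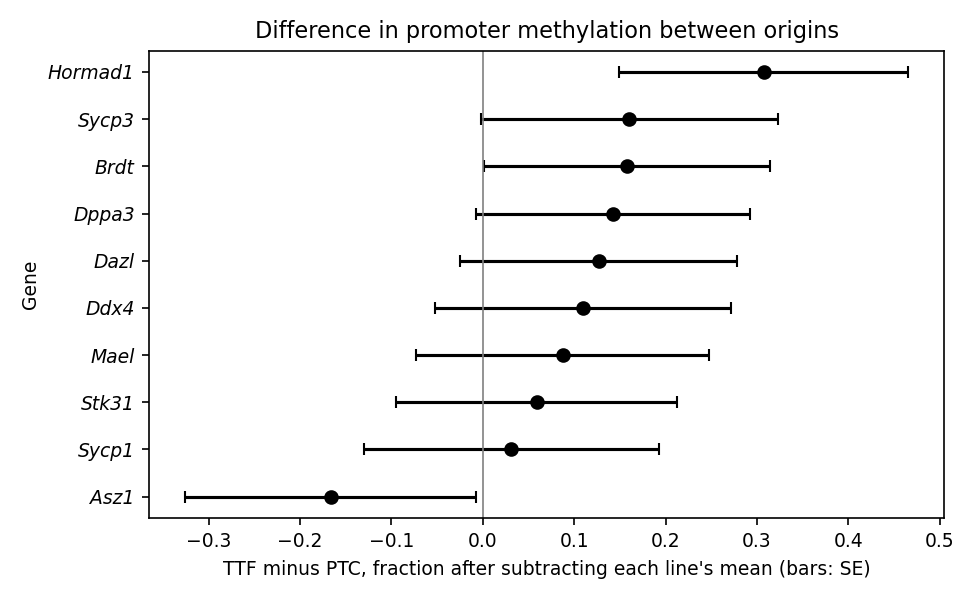
TTF minus PTC difference in promoter methylation after subtraction of the mean of each line (horizontal axis, points with bars of 1 SE, n = 2 lines per origin) for the 10 germline genes. Hormad1 at 0.308 and Asz1 at -0.167 are the extremes, and no gene passed the adjusted test.

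H3K4me3 at the start of these genes was a matter of which library held a peak. Values are RPKM above input averaged over peaks from 2 kb before to 3 kb after the TSS, and a gene with no retained peak has none. The number of germline genes with a value was 1 in PTC11 and 10 in PTC12, and 8 in TTF1 and 0 in TTF4, beside 34.4%, 45.4%, 44.2% and 34.9% of all listed genes. A value in PTC12 and TTF1 alone was found at 7 of 10 genes, against 4.51% of all genes, and none had a value in all 4 lines, against 31.2%. Of protein coding genes, as all 10 are, 56.9% had a value in PTC11 and 67.5% in PTC12, then 66.7% in TTF1 and 57.9% in TTF4. Among protein coding genes 4.33% had one in PTC12 and TTF1 alone and 53.3% in all 4 lines. Of the meiotic axis genes, Hormad1 had 3.88 RPKM in PTC12 and 3.01 in TTF1. Sycp1 had 3.40 RPKM in PTC12 and 3.15 in TTF1. Sycp3 had 3.15 RPKM in PTC12 and 3.32 in TTF1. All 3 had no value in PTC11 and TTF4. Among the regulators, Dazl had 2.94 RPKM in PTC12 and 2.80 in TTF1. Ddx4 had 2.94 RPKM in PTC12 and 3.08 in TTF1. Stk31 had 3.07 RPKM in PTC12 and 2.81 in TTF1. They too had no value elsewhere, and Brdt had one in PTC12 alone, at 1.60 RPKM, the lowest of the 10. Mael had 2.95 RPKM in PTC12 and 2.84 in TTF1. Asz1 had 2.34 RPKM in PTC12 and no value in the other lines. Dppa3 was the one gene of the 10 with a value in PTC11, where it had 3.79 RPKM, beside 2.83 in PTC12 and 3.24 in TTF1.

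Most of these levels were low for the mark. The highest of the 10 in PTC12 stood at percentile 35.7 of the genes with a value in that library, and the median over all such genes was 4.59 RPKM. Dppa3 in PTC11 was the exception, at percentile 56.6. The 1984 genes with a value in PTC12 and TTF1 alone had medians of 2.60 and 2.65 RPKM, and genes with a value in all 4 lines 5.31 and 5.72. PTC11, with the lowest median methylation of the 10 genes, had an H3K4me3 value at 1 of them and PTC12, with the second highest, at all. The libraries differed in how many genes had a value, so whether methylation and H3K4me3 mirror each other between lines was not tested. Of the 9339 genes whose mean methylation lay in the range of the 10 germline genes, 9.21% had an H3K4me3 value in PTC11, 26.2% in PTC12, then 24% in TTF1 and 7.82% in TTF4, while 8.28% held a peak value in PTC12 and TTF1 alone. The limma comparison of origins covered genes with a value in the 4 lines and called 0.481% of 13709, and no germline gene of the 10 could enter it. The fibroblast markers counted above had fewer values in PTC11 than in the other lines, and their part in the H3K4me3 counts was not tested.

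**Figure D4:**
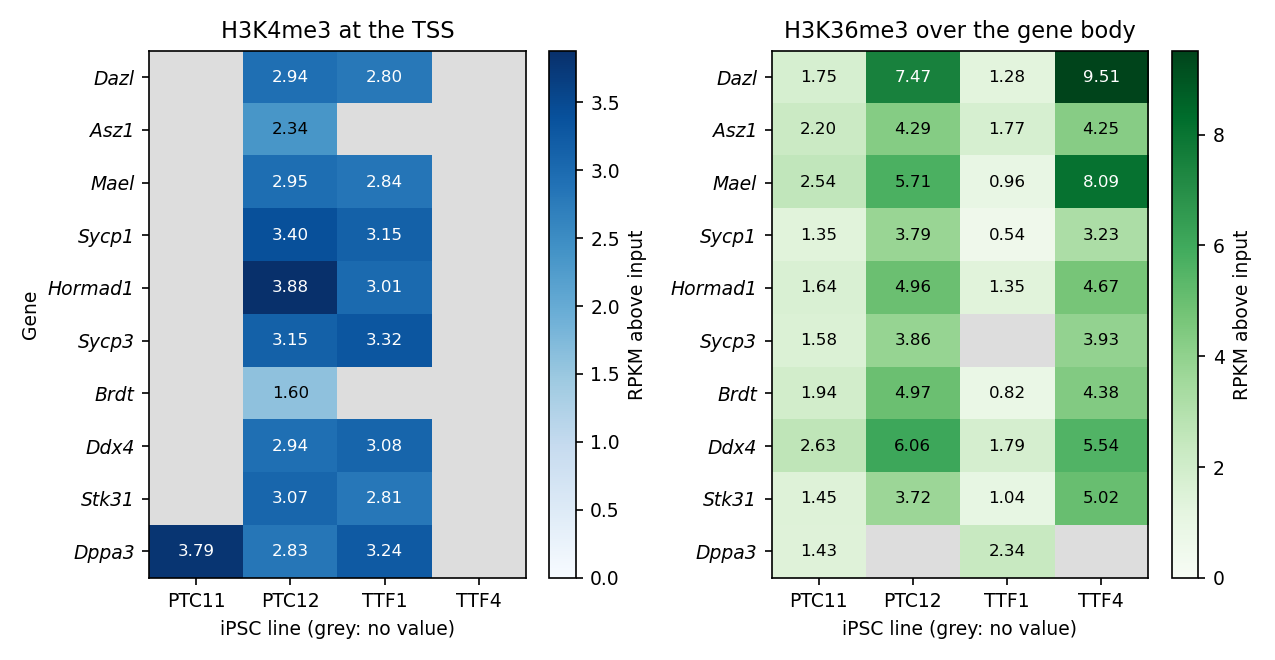
H3K4me3 at the TSS (left, blue) and H3K36me3 over the gene body (right, green), in RPKM above input, for the 10 germline genes (rows) in the 4 iPSC lines (columns), with grey cells where a gene has no value. The TTF4 column of H3K4me3 is grey throughout and the PTC12 column is full.

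H3K36me3 over the gene body had a value at 10 of 10 genes in PTC11 and 9 in PTC12, and at 9 in TTF1 and 9 in TTF4. The shares of all listed genes were 68%, 52.5%, 53.4% and 46.3%. Those of protein coding genes, as all 10 are, were 87%, 78.2%, 76.1% and 70.7%. In all 4 lines 8 genes had a value, against 38.7% of all listed genes and 63.5% of protein coding genes. The level followed the library. The median of all genes with a value was 1.60 RPKM in PTC11 and 3.88 in PTC12, and 1.18 in TTF1 and 4.01 in TTF4, and PTC12 and TTF4 both exceeded PTC11 and TTF1 at 8 of 8 germline genes, against 93.6% of all genes. Dazl had 1.75 RPKM in PTC11 and 7.47 in PTC12, and 1.28 in TTF1 and 9.51 in TTF4. Its TTF4 value, at percentile 99.2 of that library, stood beside a promoter methylated at 0.897 and without H3K4me3. Mael had 2.54 RPKM in PTC11 and 5.71 in PTC12, and 0.962 in TTF1 and 8.09 in TTF4, and reached percentile 97.4 in TTF4 and 94.6 in PTC11. Ddx4 had 2.63 RPKM in PTC11 and 6.06 in PTC12, and 1.79 in TTF1 and 5.54 in TTF4, at or above percentile 82.9 in every line. These 3 genes stood above the median of all genes in PTC12 and TTF4, and Mael alone of them fell below it in a line, TTF1.

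Of the other genes, Sycp1, with the lowest mean of the 8, had 1.35 RPKM in PTC11 and 3.79 in PTC12, and 0.544 in TTF1 and 3.23 in TTF4. It was below the median of each library. Stk31 had 1.45 RPKM in PTC11 and 3.72 in PTC12, and 1.04 in TTF1 and 5.02 in TTF4. Brdt had 1.94 RPKM in PTC11 and 4.97 in PTC12, and 0.823 in TTF1 and 4.38 in TTF4. Hormad1 had 1.64 RPKM in PTC11 and 4.96 in PTC12, and 1.35 in TTF1 and 4.67 in TTF4. Hormad1 was above the library median in every line, Brdt in the lines other than TTF1, and Stk31 in TTF4 alone. Asz1 had 2.20 RPKM in PTC11 and 4.29 in PTC12, and 1.77 in TTF1 and 4.25 in TTF4. Sycp3 had 1.58 RPKM in PTC11, 3.86 in PTC12, no value in TTF1 and 3.93 in TTF4. Sycp3 lies inside Chpt1, which runs on the opposite strand and had 1.32 RPKM in PTC11 and 3.34 in PTC12, and 1.54 in TTF1 and 4.04 in TTF4, so that its H3K36me3 cannot be told apart from that of Chpt1. Dppa3 had 1.43 RPKM in PTC11, 2.34 in TTF1, at percentile 97.8 of that library, and no value in PTC12 and TTF4. A value in PTC11 and TTF1 alone was found at 8.12% of all listed genes.

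**Figure D5:**
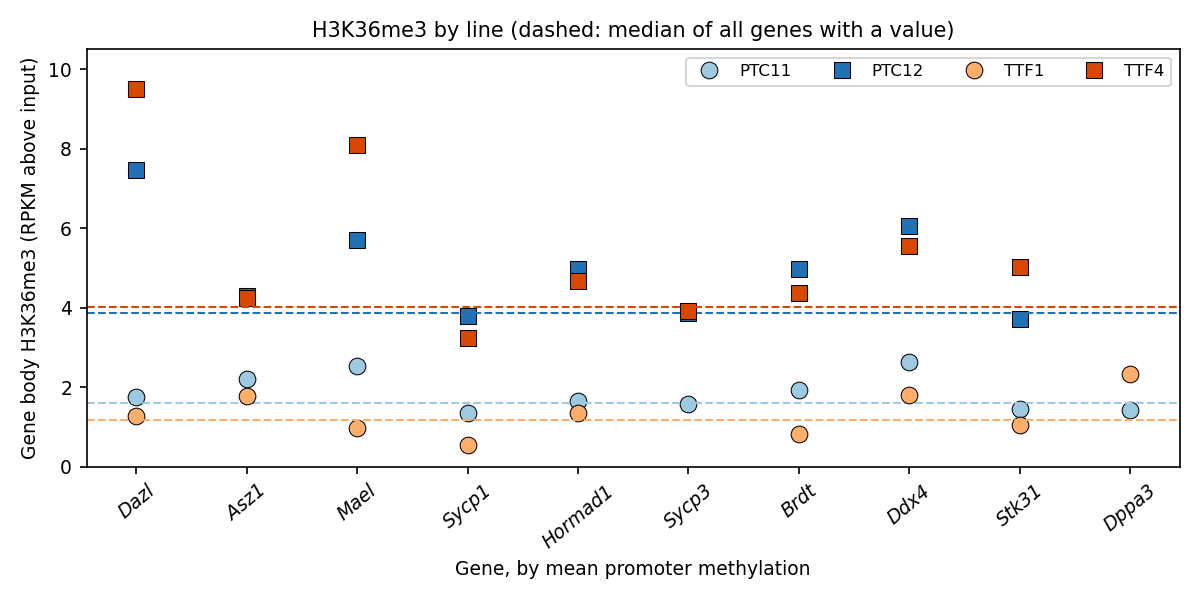
H3K36me3 over the gene body in RPKM above input (vertical axis) at the 10 germline genes (horizontal axis, by mean promoter methylation), with 1 point per line, circles for PTC11 and TTF1, squares for PTC12 and TTF4, and dashed lines for the median of all genes with a value. Dazl reaches 9.51 RPKM and Mael 8.09 in TTF4, beside a median of 4.01.

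Between origins, none of the 8 germline genes with H3K36me3 in all 4 lines passed limma on log2(RPKM + 1) at an adjusted p of 0.05, against 0.112% of 17039 genes, and none had an unadjusted p under 0.05, against 0.681%. The log2 differences, TTF minus PTC, ran from -0.42 at Brdt (SE 1.05) to 0.04 at Stk31 (SE 1.00), with a median of -0.16 beside -0.14 for all genes tested. Leaving out 1 line moved that median to between -0.97 (without TTF4) and 0.48 (without TTF1, when 9 of the genes could be tested). At none of the 8 did the lines of the origins separate, against 3.5% of all genes. The gap between the PTC lines and the gap between the TTF lines each exceeded the gap between origins at 8 of 8 genes. H3K27me3, the Polycomb mark, had no value at any of the 10 genes in any of the 4 libraries. It had a value at only 11 to 144 of 43984 genes per library, so its absence here could not be told from a library with few peaks, and both PTC libraries of this mark carry the name PTC11.

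Dppa3 stood apart from the other 9 genes in all 3 assays. Its mCpG profile over the 4 lines lay furthest from the median profile of the 10, at a Euclidean distance of 0.426, and that of Brdt lay nearest, at 0.0809. Of 67 other germline genes, those nearest to Dppa3 over the 4 lines were Dmc1 (distance 0.137), the meiotic recombinase, Nanos3 (0.140), an RNA-binding protein of primordial germ cells, and Rec8 (0.142), the meiotic cohesin. Dmc1 had a fraction of 0.143 in PTC11 and 0.228 in PTC12, and 0.0495 in TTF1 and 0.877 in TTF4, and like Dppa3 it had H3K4me3 in the lines other than TTF4, with 3.54 RPKM in PTC11. The nearest to the median profile of the 10 were Zp1, a protein of the egg coat, then Hormad2 (0.138), a relative of Hormad1, and Tdrd1 (0.181), a Tudor protein of the piRNA pathway. Tdrd1 had 0.333 in PTC11 and 0.502 in PTC12, and 0.227 in TTF1 and 0.900 in TTF4 with H3K4me3 in PTC12 and TTF1 alone.

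The 67 other germline genes ran from a mean fraction of 0.0464 to 0.787. The median was 0.490. A mean above 0.5 was found at 33, against 56.6% of all genes, and TTF4 was the highest line at 61, against 75.4%. None of the 67 passed limma between origins. Piwil1, Tex11 and Zp3, 3 of the 67, had an unadjusted p under 0.05, against 4.72% of all genes. Of the 64 in the histone table, H3K4me3 had a value at 23 in PTC11 and 52 in PTC12, and 47 in TTF1 and 12 in TTF4, while 18 had one in PTC12 and TTF1 alone. The shares of all listed genes were 34.4%, 45.4%, 44.2% and 34.9%, with 4.51% for PTC12 and TTF1 alone. Tfap2c and Prdm1, which specify germ cells, and Lhx8, an oocyte homeobox factor, were the least methylated, with mean fractions of 0.0464, 0.0941 and 0.143, and stayed low in TTF4 at 0.0437, 0.146 and 0.0696. Rpl10l, Tdrd9 and Mov10l1 were the most methylated, with means of 0.787, 0.785 and 0.782. Among the 11 with H3K4me3 in all 4 lines the highest means were at Prdm9, the methyltransferase that places meiotic recombination, with 4.80 RPKM, and at Prdm1, Syce2, Msh5 and Meiob, with 4.35 to 4.21 RPKM; all 5 had a mean methylated fraction of 0.206 or less.

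Of 22 genes for DNA methylation enzymes and repressors of germline genes, 19 had H3K4me3 in all 4 lines, among them Dnmt3a and Dnmt3b, the de novo methyltransferases, Uhrf1, which guides maintenance of methylation, E2f6, Mga and Pcgf6 of the Polycomb complex, and Setdb1, an H3K9 methyltransferase. The other 3 were Dnmt1, Dnmt3l and Tet1. All 22, these 3 included, had an H3K36me3 value over the gene body in all 4 lines. Of all listed genes 31.2% had H3K4me3 and 38.7% H3K36me3 in all 4 lines, and of protein coding genes 53.3% and 63.5%. Each gene had 1 value per line and mark, so separate starts of a gene could not be told apart. Tet1, which oxidizes methylated cytosine, had a fraction of 0.458 in PTC11 and 0.779 in PTC12, and 0.310 in TTF1 and 0.982 in TTF4, and H3K4me3 in PTC12 (3.82 RPKM) and TTF1 (3.11 RPKM) alone, the pattern of 7 of the germline genes. Dnmt1, the maintenance methyltransferase, had 0.559 in PTC11 and 0.663 in PTC12, and 0.597 in TTF1 and 0.951 in TTF4, with H3K4me3 in PTC12 alone at 1.79 RPKM. Dnmt3l, a cofactor of the de novo enzymes, had 0.511 in PTC11 and 0.646 in PTC12, and 0.385 in TTF1 and 0.859 in TTF4, with H3K4me3 in TTF1 alone at 2.45 RPKM. None of the 22 passed the limma test between origins in mCpG.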

How the data were processed

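The data were 16 libraries from 4 mouse iPSC lines, with 1 mCpG, 1 H3K4me3 and 1 H3K36me3 library per line and 4 H3K27me3 libraries. The paper states that ChIP was done in duplicate on the lines. The labels of the histone values carried a number after the line name that was not the same for every line, and its meaning was not given. The authors called bases with Guppy, aligned reads to mm10 with Minimap2 (2.17-r941 in the submitters' processing notes), called CpGs with Nanopolish and deposited the methylated fraction per gene, from windows of 300 bp moved by 30 bp. The authors aligned ChIP-seq reads with Bowtie2 (2.1.0), called peaks per library with MACS2 (2.0.10), subtracted input RPKM and deposited for each gene an average RPKM over its peaks. Coverage and read counts were not given in these tables, so the depth behind each value is unknown and no counting interval was computed.

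Genes were matched by name, and lines by the sample titles. Fractions were centred on the mean of each line, and RPKM were taken as log2(RPKM + 1), which understates changes of low genes. limma 3.58.1 (R 4.3.3; lmFit, eBayes with trend) was fitted to all genes with a value in all 4 lines and was tested on simulated data. The p-values rest on the spread between 2 lines per origin, which limma draws toward a trend over all genes. Promoter sequences (250 bases before to 50 after the start) came from RefSeq, GRCm38.p6, and were used where their start lay within 1000 bp of the start in the methylation table. CpGs and motifs were counted with Python 3.11.15 and pandas 2.3.3. All 10 genes were named; other genes were named by rule, as the 3 nearest in methylation profile to the median of the 10 and to Dppa3, the 3 least and 3 most methylated, up to 5 with the highest H3K4me3 in all 4 lines, and set regulators; those with an unadjusted p under 0.05 and members of counts were named after their values were seen. The genes and lists were chosen with earlier results of these data known. H3K27me3 was not tested, because both PTC libraries are labelled PTC11. Alternatives covered centring, scale, pseudocount, normalization, genes without a value, thresholds, background genes and each line left out in turn.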

Additional observations from a re-analysis of the deposited data

How the results depend on the processing

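None of the 10 genes was called by limma between origins in mCpG or H3K36me3 under any alternative that kept all 4 lines. For H3K4me3 most alternatives could not call one, because no germline gene of the 10 entered them. With missing values set to 0 all 10 entered and none was called, and without TTF4 Dppa3 alone entered. In methylation, Hormad1 had an unadjusted limma p under 0.05 with quantile normalization (0.0283), on the logit scale (0.0468) and without the variance trend (0.0367). The median TTF minus PTC difference in methylation stayed positive under the other centring, scale and gene choices (0.206 without centring, 0.111 with quantile normalization, 0.83 on the logit scale) but ranged from -0.0586 to 0.264 when 1 line was left out, and was negative without TTF4. For H3K36me3 the median log2 difference ranged from -0.97 to 0.48 when 1 line was left out. Among 82 single-gene differences under the other settings 4 changed sign, all in H3K36me3: Dazl with -0.0394 and Stk31 with -0.00941 at a pseudocount of 0.1, and Asz1 with 0.0176 and Hormad1 with 0.0479 under quantile normalization. Of 72 with 1 line left out, 24 changed sign. With 1 line left out the methylation differences ranged from -0.038 to 0.213 at Mael, -0.143 to 0.206 at Sycp1, -0.0422 to 0.363 at Sycp3, -0.133 to 0.352 at Ddx4, -0.149 to 0.267 at Stk31 and -0.114 to 0.398 at Dppa3, and the lowest of each came without PTC11 or TTF4. The H3K36me3 log2 differences ranged from -1.08 to 1.12 at Dazl, -0.573 to 0.352 at Asz1, -1.31 to 0.899 at Mael, -1.12 to 0.332 at Sycp1, -0.756 to 0.513 at Hormad1, -1.2 to 0.361 at Brdt, -0.857 to 0.37 at Ddx4 and -0.737 to 0.826 at Stk31. The causes were not tested.

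The count of genes with a mean fraction above 0.5 fell from 8 to 2 at a threshold of 0.6, to 0 at 0.7 and to 1 when a value above the mean of all genes was asked in every line, and ranged from 2, without TTF4, to 9 when 1 line was left out. The median mean fraction of the 10 genes exceeded that of all genes by 0.0105, that of protein coding genes by 0.319 and that of promoters with as many CpGs by 0.444.

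Over all genes, calls in methylation went from 2 to 0 without centring, with quantile normalization or on the logit scale, to 9 without X and Y and to 1 without the variance trend, and ranged from 0 (without PTC12) to 1003 (without TTF1) with 1 line left out. Calls in H3K4me3 went from 66 to 102 at a pseudocount of 0.1, to 662 with missing values set to 0, and to 0 with quantile normalization or with genes under 1 RPKM left out, and ranged from 78 to 138. Calls in H3K36me3 went from 19 to 44 at a pseudocount of 0.1 and to 0 with quantile normalization, missing values set to 0 or genes under 1 RPKM left out, and ranged from 1 to 53. No paired analysis was possible because the PTC and TTF lines share no replicate number. Coverage behind the fractions is unknown, and no line has a replicate library in any test.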

Other observations

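The genes given here were picked after their values were seen and stand for no wider group. Of the markers of pluripotent cells 7 of 10 had an H3K4me3 value in TTF4, and the germ cell regulators Tfap2c and Prdm1 had one in all 4 lines, with TTF4 fractions of 0.0437 and 0.146. Prdm14, a regulator of germ cell specification and of the naive state, had a methylated fraction of 0.0345 in PTC11 and 0.140 in PTC12, and 0.0254 in TTF1 and 0.879 in TTF4, with H3K4me3 in the lines other than TTF4 at 3.02 to 4.16 RPKM. Dppa4 had 0 in PTC11 and 0.103 in PTC12, and 0.0504 in TTF1 and 0.759 in TTF4, and its partner Dppa2 had 0.0514 in PTC11 and 0.190 in PTC12, and 0.153 in TTF1 and 0.608 in TTF4. Zfp42, known as Rex1, had 0.0284 in PTC11 and 0.209 in PTC12, and 0.100 in TTF1 and 0.803 in TTF4, with H3K4me3 in the lines other than TTF4. Pou5f1, which encodes Oct4, kept a low fraction in TTF4, 0.0786, and H3K4me3 of 4.24 RPKM there. Each line is 1 sample, so none of these differences between lines could be tested.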
